A study of Mus musculus with 6 samples.

Results

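Deep-layer excitatory neurons of the cerebral cortex were described through 9 genes that mark or specify them: Fezf2, Bcl11b, Tbr1, Foxp2, Tle4, Etv1, Crym, Rprm and Ntsr1. They were taken by symbol from the 55450 genes of the count tables, each matched 1 identifier, and 9 of 9 passed the filter on low counts. Polyadenylated RNA of adult mouse cortex had been sequenced in 6 libraries, of which 3 came from animals labelled heterozygous for Setd5 and 3 from animals labelled wild type. The sources used here give no strain, sex, age beyond adult, kind of Setd5 allele or part of cortex dissected, and they name no agent or transgene. Whether each library is from its own animal is not stated in the labels, so p-values reflect the scatter of these libraries, part of which may be technical. Replicates are numbered 1 to 3 in the order of the records, a name that pairs no library with another, and values by library follow that order.

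Many, but not all, projection neurons of layers 5 and 6 send axons out of the cortex, to the spinal cord and brainstem from layer 5 and to the thalamus from layer 6. Their identities are set by transcription factors that act on each other: Fezf2 directs neurons to the subcerebral fate and lies upstream of Bcl11b, while Tbr1 drives the corticothalamic fate and restrains the Fezf2 and Bcl11b programme in layer 6. In adult tissue these genes, with Etv1, Foxp2, Tle4, Crym, Rprm and Ntsr1, serve as markers of the layers. In bulk tissue fewer cells of a type and less RNA per cell cannot be told apart.

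Setd5, which encodes a SET-domain chromatin protein, checked the labels. In CPM, which are counts scaled to effective library size, it was at 69.5, 68.7 and 75.3 in the heterozygous libraries and at 111, 97.0 and 108 in the wild type libraries, and these ranges did not meet. Its adjusted p by edgeR's quasi-likelihood test was 0.258, and 0 of the 27939 genes tested had an adjusted p under 0.05, or 0% (1628 genes, or 5.83%, had an unadjusted p under 0.05). DESeq2 called 62 genes. Library totals ran from 82850628 to 92860628 counts. Xist, the X-inactivation transcript, was at 865 CPM in heterozygous replicate 3 and 784 CPM in wild type replicate 3 and under 1 CPM in the other 4 libraries. The same 2 libraries had the highest levels of striatal marker genes.

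The 9 genes covered a wide span of expression. Per kilobase of annotated exon, and averaged over the 6 libraries, Rprm stood at 40.0 CPM per kb, above 95.3% of the genes tested. Tbr1 followed at 17.6 CPM per kb, and the ranges of Rprm and Tbr1 over libraries did not meet each other or those of the genes below. Tle4 at 9.87, Fezf2 at 9.09, Crym at 8.42, Bcl11b at 5.73 and Etv1 at 4.12 CPM per kb came next, and within this run each gene overlapped its neighbour in the order. Foxp2 at 1.54 and Ntsr1 at 0.973 CPM per kb were the lowest and also overlapped each other. Ntsr1 still had between 254 and 390 counts in a library, which gives a counting error of 5.47% per library. For the other 8 genes the counting error was 1.08% to 2.12%, and for 9 of 9 the spread between replicates exceeded it in both groups.

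**Figure D1:**
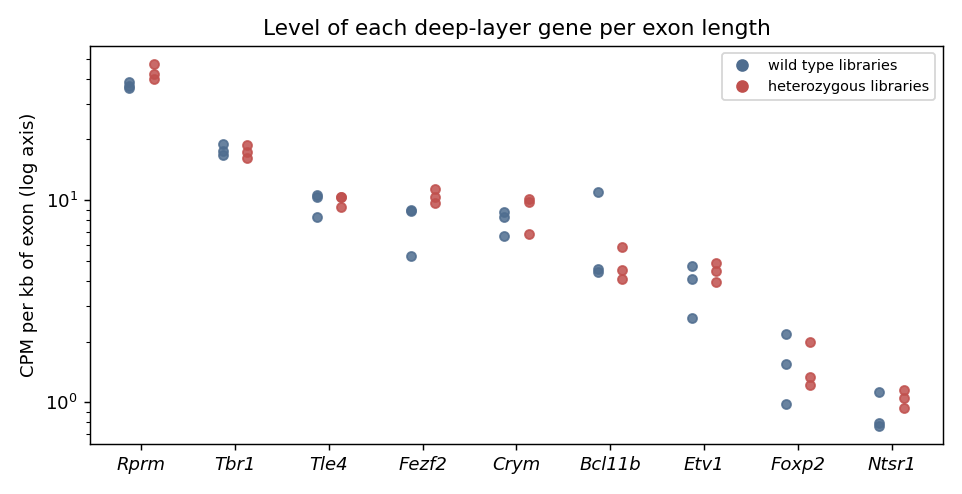
Level of each of the 9 genes in CPM per kilobase of exon on a log axis, with 1 point per library, wild type in blue and heterozygous in red. Rprm is the highest in every library, and Foxp2 and Ntsr1 are the lowest with points that overlap.

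Among the genes of layer 5, Fezf2, the zinc-finger factor required for subcerebral projection neurons, had its 3 highest values in the heterozygous libraries. It lies on the minus strand of chromosome 14 (GRCm38, 12342094 to 12348189). The heterozygous libraries held 31.5, 34.8 and 29.6 CPM, against 26.9, 27.3 and 16.1 CPM in the wild type libraries. Wild type replicate 3 was far below the other 5 libraries, which lay between 26.9 and 34.8 CPM. The log2 difference was 0.45 (SE 0.17), or 136% of the wild type level (95% interval 104% to 179%). By edgeR's quasi-likelihood test the unadjusted p was 0.0298 and the adjusted p 0.844, so the difference did not pass the threshold. Without wild type replicate 3 the log2 difference was 0.24 (unadjusted p = 0.0152 by edgeR). It was 0.45 without heterozygous replicate 1 and 0.38 without heterozygous replicate 2, where the unadjusted p of 0.0603 and 0.0975 by edgeR was no longer under 0.05.

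Bcl11b, a zinc-finger factor that acts downstream of Fezf2 in subcerebral axon growth and is also a defining gene of striatal projection neurons, did not follow it. The gene spans 107910403 to 108003602 on the minus strand of chromosome 12. It was at 32.97, 36.5 and 47.6 CPM in the heterozygous and 35.7, 37.0 and 89.1 CPM in the wild type libraries. The groups overlapped, and wild type replicate 3 was the highest library by a wide margin. The log2 difference was -0.47 (SE 0.32, adjusted p = 0.874 by edgeR), and it was 0.10 without wild type replicate 3.

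Etv1, an ETS-family transcription factor of layer 5 neurons (chromosome 12, 38779380 to 38870484, plus strand), was at 52.3, 64.7 and 59.6 CPM in the heterozygous and 63.1, 54.3 and 34.6 CPM in the wild type libraries. The groups overlapped, with wild type replicate 3 again the lowest library. Its log2 difference was 0.22 (SE 0.18, adjusted p = 0.895 by edgeR), and without wild type replicate 3 it was 0.005. Crym, which encodes the thyroid-hormone-binding protein mu-crystallin and marks corticospinal neurons (chromosome 7, 120186380 to 120202111, minus strand), was at 23.2, 33.4 and 34.4 CPM in the heterozygous and 28.1, 29.6 and 22.7 CPM in the wild type libraries. One library of each group, heterozygous replicate 1 and wild type replicate 3, was low. The log2 difference of Crym was 0.18 (SE 0.15, adjusted p = 0.895 by edgeR), 0.34 without heterozygous replicate 1 and 0.07 without heterozygous replicate 3 or wild type replicate 3.

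In layer 6, Tbr1, the T-box factor of corticothalamic identity (chromosome 2, 61802930 to 61814114, plus strand), was nearly level across the study. It was at 103, 89.2 and 95.6 CPM in the heterozygous and 91.4, 95.8 and 104.7 CPM in the wild type libraries. The highest library exceeded the lowest by 1.17-fold, the narrowest span of the 9 genes. The log2 difference was -0.02 (SE 0.08) with a 95% interval from -0.19 to 0.15, which is a heterozygous level between 87.6% and 111% of wild type. Tle4, a Groucho-family co-repressor of corticothalamic neurons (chromosome 19, 14448150 to 14598051, minus strand), was at 52.6, 59.0 and 58.9 CPM in the heterozygous and 46.9, 60.5 and 59.5 CPM in the wild type libraries. The groups overlapped, and replicate 1 of each group was its lowest library. The log2 difference was 0.03 (SE 0.10), with a 95% interval from -0.20 to 0.26.

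Foxp2, a forkhead factor of layer 6 neurons that striatal projection neurons also express, lies on the plus strand of chromosome 6 (14901349 to 15441977), 97.6 Mb from Setd5. It was at 21.7, 20.01 and 32.5 CPM in the heterozygous and 16.1, 25.3 and 35.6 CPM in the wild type libraries. Replicate 3 was the highest library of each group and the groups overlapped widely. The log2 difference of -0.06 (SE 0.26) had a 95% interval from -0.65 to 0.54, the widest of the layer 6 genes.

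Rprm and Ntsr1 mark corticothalamic neurons. Rprm encodes Reprimo, a protein linked to cell cycle arrest downstream of p53, in 1 exon on the minus strand of chromosome 2 (54084093 to 54085552). It was at 58.0, 61.3 and 69.0 CPM in the heterozygous and 52.5, 53.6 and 56.0 CPM in the wild type libraries, so every heterozygous library lay above every wild type library. The log2 difference was 0.22 (SE 0.08), or 116% of the wild type level (95% interval 103% to 131%). Its p was the smallest of the 9 genes, at 0.018 unadjusted and 0.828 adjusted by edgeR's quasi-likelihood test, and did not pass. Without heterozygous replicate 3 the log2 difference was 0.14 (unadjusted p = 0.0966 by edgeR).

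Ntsr1 encodes a receptor of the peptide neurotensin (chromosome 2, 180499976 to 180544980, plus strand). It was at 3.69, 4.51 and 4.13 CPM in the heterozygous and 3.00, 3.11 and 4.42 CPM in the wild type libraries. Wild type replicate 3 lay among the heterozygous libraries and the other wild type libraries below all of them. The log2 difference was 0.23 (SE 0.17, adjusted p = 0.888 by edgeR), and it moved with the wild type library left out. It was 0.13 without replicate 1 (unadjusted p = 0.516 by edgeR), 0.14 without replicate 2 (unadjusted p = 0.474 by edgeR) and 0.43 without replicate 3 (unadjusted p = 0.0146 by edgeR).

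**Figure D2:**
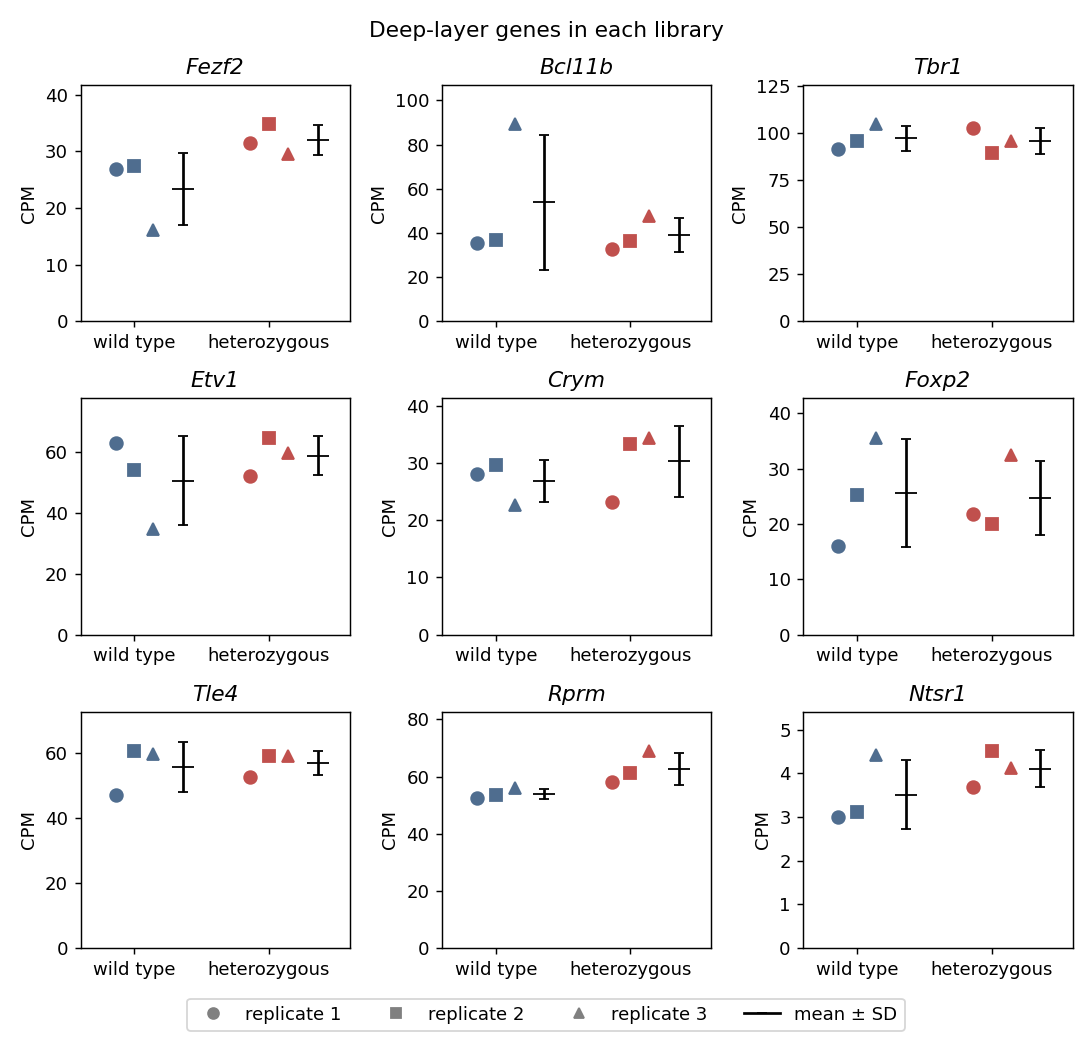
CPM of each of the 9 genes by library, with wild type in blue, heterozygous in red, a marker shape for each replicate and the mean ± SD of 3 libraries in black. Heterozygous libraries lie above wild type ones for Fezf2 and Rprm, and wild type replicate 3 (triangle) stands apart for Bcl11b, Fezf2 and Etv1.

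The sequences before the starts of Rprm and Ntsr1 are shown because, among the layer 6 genes, theirs are the windows that lie outside annotated exons and whose RefSeq start matches a transcript of the annotation used here. The window of Tbr1 lies wholly in an annotated exon, and neither start of Tle4 matches a transcript. Each is the run of 250 bases before the start (RefSeq, GRCm38.p6), on chr2:54085553-54085802 of the minus strand for Rprm and chr2:180499726-180499975 of the plus strand for Ntsr1. Capitals mark matches to 5 motifs searched on both strands, which were the GC box (GGGCGG), the CCAAT box (by those 5 letters), the motif TATAAA, a site for T-box factors (GGTGTGA) and the E-box (CANNTG).
Rprm: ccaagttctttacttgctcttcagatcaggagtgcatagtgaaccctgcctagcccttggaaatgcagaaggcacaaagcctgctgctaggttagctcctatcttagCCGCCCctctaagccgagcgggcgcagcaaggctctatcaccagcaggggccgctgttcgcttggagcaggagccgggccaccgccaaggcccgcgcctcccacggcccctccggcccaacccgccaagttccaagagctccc
Ntsr1: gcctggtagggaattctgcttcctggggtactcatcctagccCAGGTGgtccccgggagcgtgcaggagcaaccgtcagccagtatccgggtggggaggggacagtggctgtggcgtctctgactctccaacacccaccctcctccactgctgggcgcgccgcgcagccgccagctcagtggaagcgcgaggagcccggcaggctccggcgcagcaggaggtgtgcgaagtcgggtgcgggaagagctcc
Rprm held 1 GC box and no match to the other 4. Ntsr1 held 1 E-box and no match to the others. The 7 members in the RefSeq table had 9 windows, since Tle4 and Etv1 have 2 starts each. Annotated exons of the gene took up 94 of the 250 bases for Fezf2, 188 for Bcl11b and 250 for Tbr1. They took up 96 bases in a window of Tle4 and 241 in a window of Etv1. Of the 9 windows 5, from 4 of the 7 genes, held a GC box, against 32.7% of all 32851 windows of that length. An E-box was in 4, against 66.2%. A CCAAT match was in 1, against 33.8%, a TATAAA match in 1, against 12.4%, and the site for T-box factors in 0, against 3.33%. Such a match is a description of letters and not of binding.

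Read as a group, 6 of the 9 genes had a fitted level above wild type and 3 below, where 49.9% of all genes tested were above and 50.1% below. The median log2 difference was 0.18, against -0.001 over all genes tested. In the adjusted test 0 of 9 passed by edgeR's quasi-likelihood test, which called 0% of all genes. The same 0 of 9 passed in DESeq2, which called 0.251% of the 24679 genes to which it gave an adjusted p, in the edgeR likelihood ratio test (0.104% of the 27939 genes) and in limma-voom (0% of them, or 0.00716% with quality weights). Fezf2 and Rprm, or 2 of 9, were higher at an unadjusted p under 0.05, where 2.44% of all genes tested stood, and 0 of 9 were lower, where 3.38% stood. For the same 2 genes all heterozygous libraries lay above all wild type libraries, as for 5.88% of all genes tested, and for 0 of 9 they lay below, as for 5.85%. Which genes were higher at an unadjusted p under 0.05 by edgeR changed with the library left out. Without heterozygous replicate 1 they were Crym and Rprm (1.56% of all genes in the higher direction), without heterozygous replicate 2 Rprm alone (1.26%) and without heterozygous replicate 3 Fezf2 alone (2.08%). Without wild type replicate 1 they were Fezf2 and Etv1 (3.17%), without wild type replicate 2 Fezf2 and Rprm (3.76%) and without wild type replicate 3 Fezf2, Rprm and Ntsr1 (2.93%). Without both libraries of high Xist they were Fezf2, Rprm and Ntsr1, against 3.4%, and the median of the 9 was 0.04.

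**Figure D3:**
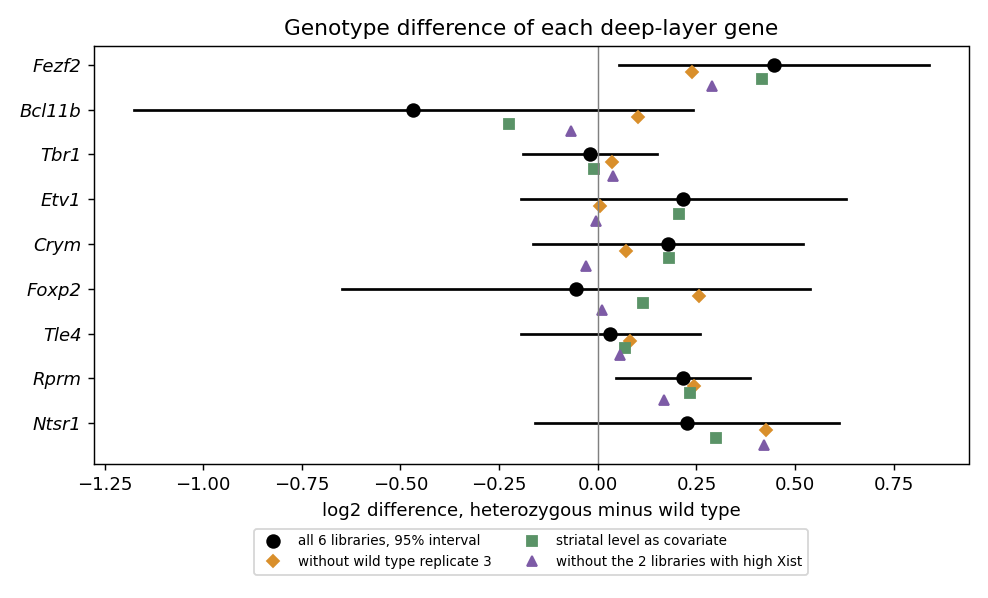
Log2 difference between genotypes of each of the 9 genes, with the 95% interval over 6 libraries in black and the value without wild type replicate 3, with the striatal level as a covariate, and without the 2 libraries with high Xist in colour. Fezf2, Tle4, Rprm and Ntsr1 stay to the right of 0 in each, with Tle4 at 0.03 over 6 libraries. Bcl11b moves from -0.47 to 0.10 without wild type replicate 3, and Etv1 moves to 0.005.

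The 9 genes did not move together across libraries. Wild type replicate 3 was the highest library for 3 of them (Bcl11b, Tbr1 and Foxp2) and the lowest for another 3 (Fezf2, Etv1 and Crym), and wild type replicate 1 was the lowest for 4. The span from the lowest to the highest library was 2.70-fold for Bcl11b, 2.21-fold for Foxp2 and 2.16-fold for Fezf2, against 1.29-fold for Tle4 and 1.31-fold for Rprm. Of the 36 pairs of members, the furthest apart were Fezf2 and Bcl11b, whose centred log2 levels differed by a root mean square of 0.82 over the 6 libraries. The closest were Tle4 and Rprm, at 0.14, which was no smaller than the 0.13 by which each differed from its own mean. Fezf2 and Etv1 were 0.16 apart, while they differed from their own means by 0.35 and 0.30.

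Striatal marker genes differed far more between libraries than any of the 9. Set against the wild type mean, their mean log2 level was -2.04, -0.31 and 0.90 in the heterozygous and -1.91, -0.22 and 2.14 in the wild type libraries, a span of 18.1-fold. All 11 markers tested were highest in wild type replicate 3, and 11 of 11 were next highest in heterozygous replicate 3. The summed level ran from 276 to 588 CPM in heterozygous and from 183 to 1303 CPM in wild type libraries. The adenosine receptor Adora2a was at 1.51, 5.89 and 16.5 CPM in the heterozygous and 1.48, 7.34 and 59.5 CPM in the wild type libraries, and the dopamine receptor Drd2 at 0.435, 3.26 and 9.82 against 0.603, 4.27 and 30.8 CPM. Isl1, a factor of striatal development, had a count of 0 in heterozygous replicate 1, which allows up to 0.0326 CPM. The order of the 6 libraries by Bcl11b was the same as by the striatal level.

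With the striatal level as a covariate in edgeR's fit the log2 difference of Bcl11b went from -0.47 to -0.23 and that of Foxp2 from -0.06 to 0.11. Of the 9 genes Foxp2 alone changed sign. The difference in that fit was 0.42 for Fezf2 (unadjusted p = 0.0101), 0.23 for Rprm (unadjusted p = 0.00701) and 0.30 for Ntsr1 (unadjusted p = 0.0584). In it 2 of 9 genes were at an unadjusted p under 0.05 in the higher direction, against 2.7% of all genes. Between the 2 libraries with high Xist, Fezf2 was at 29.6 CPM in the heterozygous and 16.1 CPM in the wild type library, Bcl11b at 47.6 and 89.1 CPM, and Rprm at 69.0 and 56.0 CPM. Etv1 and Crym were also higher in the heterozygous library of this pair. Ntsr1 (4.13 against 4.42 CPM), Tbr1, Foxp2 and Tle4 were lower in it. Over the other 4 libraries the log2 difference was 0.29 for Fezf2, -0.07 for Bcl11b and 0.17 for Rprm.

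**Figure D4:**
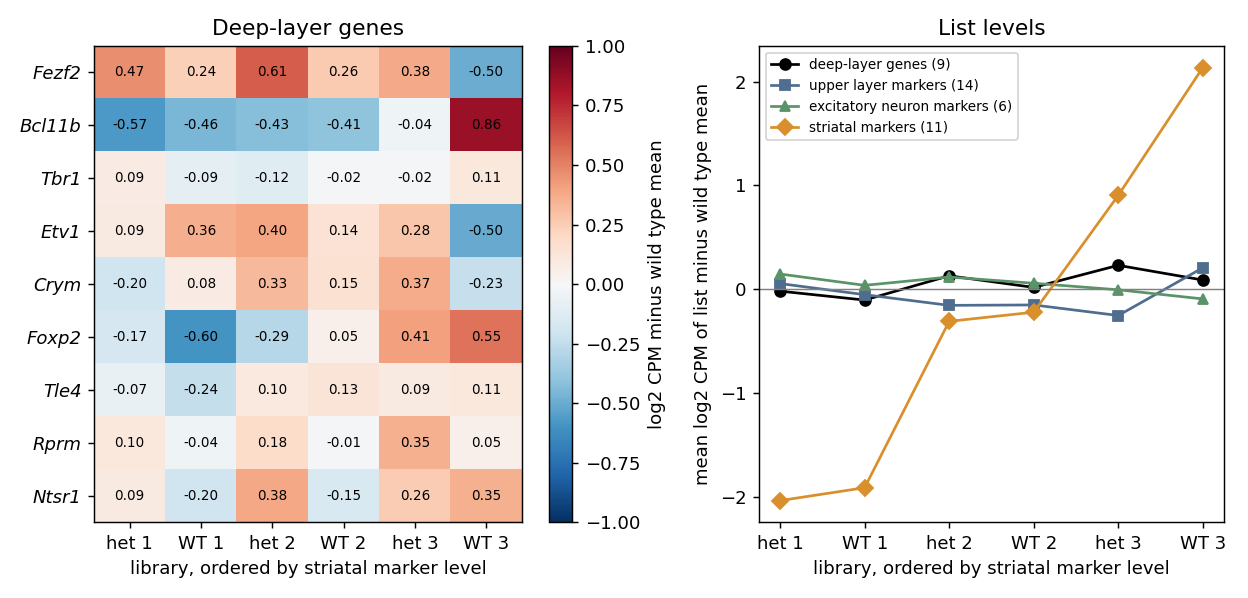
Left, log2 CPM of each of the 9 genes minus its wild type mean, in the 6 libraries ordered by the level of striatal markers. Right, the mean log2 level of the 9 genes, of upper-layer, excitatory neuron and striatal markers in the same order, where the striatal level spans -2.04 to 2.14 and the 9 genes -0.11 to 0.23.

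The gene most like each member was sought among the other members and the listed genes with a mean of at least 1 CPM, 145 candidates in all, by the root mean square difference of centred log2 levels over 6 libraries. For Etv1 it was Igfbp4, an IGF-binding protein of corticospinal neurons, at 0.08. For Fezf2 it was Hsd11b1, a glucocorticoid-activating enzyme of layer 5, at 0.12. For Crym it was Deptor, an mTOR inhibitor of layer 5, at 0.10, and for Ntsr1 it was Hs3st4, a heparan sulphate sulphotransferase of layer 6, at 0.13. Others were nearest to a gene listed for another kind of cell, Tle4 to the hippocampal marker Prox1 (0.04), Rprm to the interneuron marker Gad1 (0.09) and Tbr1 to Lxn of the layer 6 intratelencephalic and claustral list (0.06). The nearest gene was Pcp4, of the subcerebral layer 5 list, for Foxp2 (0.20) and Nxph4, of the layer 6b list, for Bcl11b (0.25). Tle4 and Rprm themselves differed from their own means by 0.13 and Tbr1 by 0.08, so their small distances partly reflect levels that varied little. For the rest this value ran from 0.23 (Ntsr1) to 0.49 (Bcl11b). Among the 9, each gene lay between 0.14 and 0.30 from its nearest fellow.

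Other genes of the deep layers were taken from 6 lists. Of their 46 genes, 23 had a fitted level above wild type and 23 below, with a median log2 difference of -0.02, and 0 passed the adjusted test by edgeR. At an unadjusted p under 0.05 there was 1 in the higher and 2 in the lower direction, where 2.44% and 3.38% of all genes tested stood. Groups did not overlap for 3 in the higher and 1 in the lower direction, as for 5.88% and 5.85% of all genes tested. The 5 further corticothalamic genes were all above wild type, with a median of 0.14, and 0 were at an unadjusted p under 0.05. Garnl3 was at 140.4, 140.2 and 145 CPM in the heterozygous and 130.3, 136 and 103 CPM in the wild type libraries, without overlap, and had a log2 difference of 0.20 (SE 0.10). Zfpm2, a zinc-finger co-regulator of layer 6, had one of 0.29 (SE 0.15) and Syt6, a synaptotagmin, one of 0.14 (SE 0.15). The mean level of the list was 0.11 to 0.20 in heterozygous and -0.07 to 0.05 in wild type libraries, so its groups did not overlap. The median of the list was 0.03 without wild type replicate 1.

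Among 15 genes of subcerebral layer 5 neurons 7 were above and 8 below wild type, with a median of -0.04, which ran from -0.09 to 0.03 with 1 library left out. S100a10, a calcium-binding-family protein, was at 12.8, 12.8 and 11.2 CPM in the heterozygous and 13.2, 16.97 and 19.4 CPM in the wild type libraries, with a log2 difference of -0.43 (SE 0.14, unadjusted p = 0.0103 by edgeR). Wild type replicate 3 was the lowest library for 10 of the 15, as it was for Fezf2, Etv1 and Crym. Chrna6, a nicotinic receptor subunit, was at 0.272 CPM there and between 1.08 and 1.59 CPM in the other libraries. Of 6 genes of layer 5 intratelencephalic neurons 5 were above wild type (median 0.11, or -0.02 without heterozygous replicate 1), and Hsd11b1 was at 37.2, 36.3 and 36.3 CPM against 28.5, 35.9 and 19.2 CPM, a log2 difference of 0.39 (SE 0.18). Near-projecting genes had 3 of 6 above and a median of -0.03, and Tshz2, a zinc-finger homeobox gene, varied within both groups, from 32.6 to 96.5 CPM in heterozygous and from 19.8 to 70.8 CPM in wild type libraries.

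Layer 6b and subplate genes had 2 of 7 above wild type and a median of -0.38. Cplx3, a complexin of subplate neurons, was at 29.7, 29.6 and 33.3 CPM in the heterozygous and 20.4, 26.1 and 28.4 CPM in the wild type libraries, with a log2 difference of 0.31 (SE 0.12, unadjusted p = 0.0266 by edgeR). Moxd1 differed by -0.54 (SE 0.21, unadjusted p = 0.0288 by edgeR) and Nxph4 by -0.39 (SE 0.28). Genes of layer 6 intratelencephalic and claustral neurons had 1 of 7 above and a median of -0.32. Wild type replicate 3 was the highest library for 5 of those 7, at 0.71 in mean log2 level above the wild type mean, and without it the median was 0.22. For the layer 6b list the median without that library was 0.03.

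**Figure D5:**
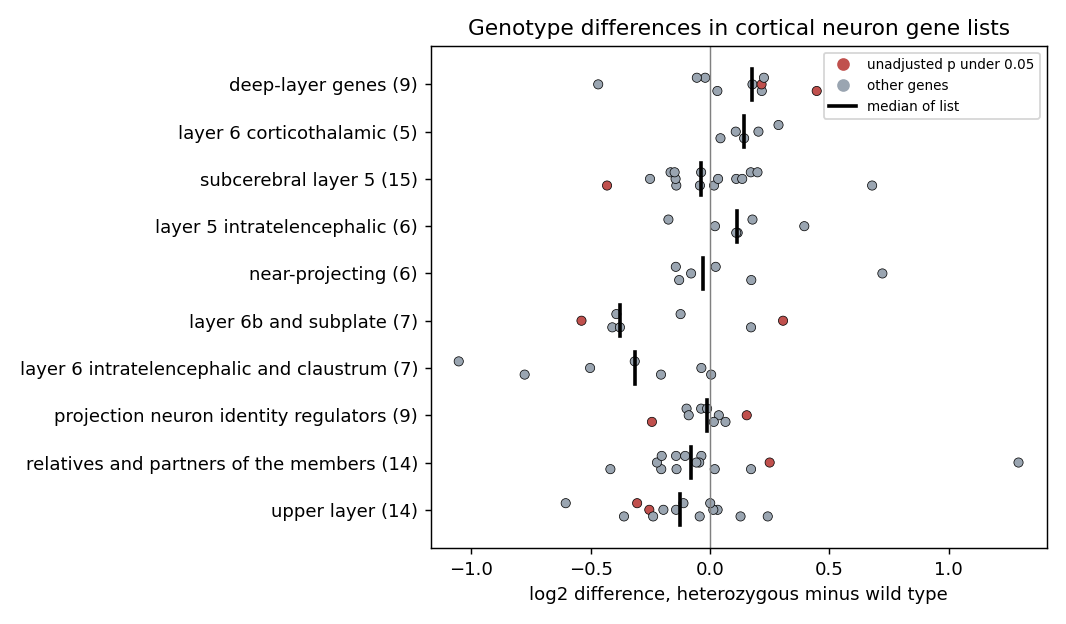
Log2 difference between genotypes of the 9 genes and of genes in 9 further lists, 1 point per gene, red at an unadjusted p under 0.05, with the median of each list as a bar. Medians run from -0.38 for layer 6b and subplate genes to 0.18 for the 9 genes.

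Regulators that set projection neuron identity beside the members lay close to wild type, with 4 of 9 above and a median of -0.01. Nr2f1, a nuclear receptor of cortical area patterning, was at 86.0, 75.0 and 82.1 CPM in the heterozygous and 91.9, 87.0 and 109 CPM in the wild type libraries (log2 difference -0.24, SE 0.09). Bcl11a, the paralog of Bcl11b, was at 96.2, 97.0 and 95.5 CPM against 93.7, 82.7 and 83.0 CPM, a log2 difference of 0.15 (SE 0.07). Both had groups that did not overlap, as had 11.7% of all genes tested in either direction, and unadjusted p of 0.0246 and 0.0427 by edgeR. Upper-layer genes had 5 of 14 above wild type and a median of -0.13, which was 0.01 without wild type replicate 3 and 0.08 without both libraries of high Xist. Of these Rorb, a nuclear receptor of layer 4, was at 102, 69.3 and 76.1 CPM against 95.3, 102 and 108 CPM (log2 difference -0.30, SE 0.13), and Calb1 differed by -0.25 (SE 0.10). The difference between the deep and the upper lists was not tested.

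Markers of other cells were read beside these values. The mean levels of the all-neuron and excitatory neuron lists lay within -0.09 to 0.15 of the wild type mean on the log2 scale in the 6 libraries, and both groups overlapped. Oligodendrocyte genes were above wild type for 5 of 5, with a summed level of 8444 to 12250 CPM in heterozygous and 7002 to 9027 CPM in wild type libraries. Their mean log2 level, set against the wild type mean, was -0.01 to 0.53 in heterozygous and -0.20 to 0.25 in wild type libraries, which overlapped. Astrocyte genes were below for 5 of 5, with a summed level of 1054 to 1202 against 1232 to 1245 CPM and a mean log2 level of -0.22 to -0.04 against -0.05 to 0.07, so the groups were apart in the sum and overlapped in the mean. Microglia genes were below for 5 of 5, with sums of 189 to 210.4 against 204 to 242 CPM that overlapped and a mean log2 level of -0.20 to -0.12 against -0.07 to 0.12 that did not. Endothelial genes were below for 5 of 5, likewise with overlapping sums (128 to 130.3 against 129.9 to 153 CPM) and a mean log2 level apart between groups, at -0.21 to -0.13 against -0.04 to 0.04. Interneuron (4 of 8 above, median 0.03), thalamic (3 of 4 above, median 0.06) and hippocampal genes (3 of 5 above, median 0.005) lay near wild type. No marker of these lists was at 0 over all libraries. The part of these lists in the differences of the 9 genes was not tested.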

How the data were processed

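Per the labels' protocols, Trizol was used to extract the RNA of adult cortex, DNase I to clear it of DNA, and an unstranded Illumina kit (TruSeq RNA Library Prep v2) to make the libraries. The authors deposited raw counts of reads per gene, 1 table per library. The submitters' processing notes name Bowtie2 2.3.4.3, FastQC, DESeq2 and featureCounts, and the builds mm10 and GRCm38.p6, with no settings. On its own Bowtie2 does not align reads across introns, so levels may be understated for genes with short exons. GENCODE M21 (GRCm38) supplied symbols, positions and exon lengths for all 55450 identifiers, and no other gene with counted reads overlaps an exon of the 9 genes.

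Genes were kept by filterByExpr (minimum count 10, minimum total 15), which left 27939. Counts were scaled with TMM and tested by the quasi-likelihood method (glmQLFit, then glmQLFTest) in edgeR 4.0.16 under R 4.3.3, with Benjamini-Hochberg adjustment over all genes and a threshold of 0.05. Standard errors and 95% intervals come from that fit, and log2 levels used a prior count of 1. A zero count was given a floor of 3 counts, for counting error only. No 2 libraries agreed within sampling noise.

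The 9 genes and the 19 other lists were chosen with earlier results of these data known. Named list genes are the up to 3 of smallest p in a list with a mean of at least 0.5 CPM, and the gene nearest to each of the 9, while Isl1 was named for its count of 0 after its values were seen. Alternatives were other scalings, other filters on low counts, DESeq2 1.42.0, the edgeR likelihood ratio test, limma-voom (limma 3.58.1) with and without quality weights, the striatal marker level as a covariate, and libraries left out.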

Additional observations from a re-analysis of the deposited data

How the results depend on the processing

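Over 17 alternatives 0 had a member that passed the adjusted test, and Setd5 stayed lower in each. Of 153 values of the 9 log2 differences 13 changed sign, none of them for Fezf2, Rprm or Ntsr1. Genes called over the transcriptome went from 0 to 6 when all genes with at least 1 count entered the fit, 62 by DESeq2, 29 by the edgeR likelihood ratio test and 2 by limma-voom with quality weights, and Setd5 passed in these fits at log2 differences of -0.57, -0.56, -0.56 and -0.59. Foxp2 was at 0.10 with quality weights and 0.11 with the striatal covariate. Without the 2 libraries with high Xist, Tbr1 was at 0.038, Foxp2 at 0.010, Etv1 at -0.005 and Crym at -0.03, and the median of the 9 genes at 0.038. The cause of these shifts was not tested.

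With 1 library left out in turn, the count called ran from 0 to 2, the members at an unadjusted p under 0.05 from 1 to 3, and the members without overlap from 2 to 3. For the members without overlap, the share over all genes was not computed in these fits, so that count is not read as a result. The median of the 9 ran from 0.07 to 0.27 and Setd5 from -0.62 to -0.52. The ranges were -0.69 to 0.10 for Bcl11b, -0.078 to 0.036 for Tbr1, -0.30 to 0.26 for Foxp2 and -0.077 to 0.093 for Tle4, which changed sign, and 0.24 to 0.57 for Fezf2, 0.14 to 0.27 for Rprm, 0.13 to 0.43 for Ntsr1, 0.07 to 0.34 for Crym and 0.005 to 0.41 for Etv1. Of 323 medians of other lists 21 moved by at least 1 SD between libraries. No paired analysis was possible because the labels give no number shared between the genotypes. The replicate numbers used here are names in the order of the records. With 3 libraries a group the exact permutation test cannot go below 0.1.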

Other observations

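Relatives and partners of the 9 genes were read from a list of 14, of which 4 were above and 10 below wild type (median log2 difference -0.08). Rprml, the close relative of Rprm, was at 48.1, 48.3 and 42.1 CPM in heterozygous and 39.4, 39.0 and 38.0 CPM in wild type replicates 1 to 3. As for Rprm and for 5.88% of all genes tested, every heterozygous library lay above every wild type library. The log2 difference of Rprml was 0.25 (SE 0.07), and edgeR's adjusted p was 0.789. Tle1, a Groucho co-repressor like Tle4, was at 24.5, 24.6 and 27.2 CPM against 28.5, 26.3 and 34.3 CPM (log2 difference -0.22, SE 0.10), and Foxp4, a forkhead relative of Foxp2, at 14.7, 13.4 and 15.2 CPM against 17.1, 14.8 and 17.9 CPM (-0.20, SE 0.10). The groups overlapped for both. In this list 0 genes passed the adjusted test and 1, Rprml, was at an unadjusted p under 0.05, where 5.83% of all genes tested stood.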
